A study of Mus musculus with 6 samples.

Results

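The Ms4a genes are a family of small membrane proteins, and 9 of them were followed here on 6 Affymetrix arrays of mouse haematopoietic stem cells. They are Ms4a1, Ms4a2, Ms4a3, Ms4a4b, Ms4a4c, Ms4a6b, Ms4a6c, Ms4a6d and Ms4a7. Every probe set that the platform's probe-to-gene table pairs with exactly 1 of these symbols was taken, which gave 18 of the 45101 probe sets, for 9 of 18194 named genes. The study set 3 arrays from Irgm1-/- mice (gene also called Lrg-47, an interferon-induced GTPase) against 3 arrays from wild-type mice, and the question was which transcripts differ in stem cells without this gene. All mice were C57BL/6, 8 to 12 weeks old and kept in a specific pathogen-free facility. The cells came from whole bone marrow and were sorted by flow cytometry as the Hoechst side population, using Sca-1, c-kit and lineage stains as well. The labels do not state how the deletion was made, how many mice were used, or whether mice were pooled. The family was chosen by its log2 differences in this same comparison, with earlier results of these data known. Their differences between the groups are therefore a description and no independent test.

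MS4A proteins cross the membrane 4 times and sit beside other receptors at the surface of blood cells, where they tune signalling and calcium entry. Most members mark particular mature cell types. Ms4a1 encodes CD20 of B cells, Ms4a2 the beta chain of the high-affinity IgE receptor of mast cells and basophils, and Ms4a3 (HTm4) marks granulocyte-monocyte progenitors in the mouse. Ms4a4b is made by T and NK cells and tunes T cell activation, whereas Ms4a6b, Ms4a6c, Ms4a6d and Ms4a7 are mainly known from monocytes, macrophages or lymphocytes. The genes lie side by side in a cluster on chromosome 19 that arose by repeated gene duplication.

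The promoter windows of the 4 genes whose Irgm1-/- arrays lay wholly above wild type are shown, since these genes differed in the same direction and stand next to each other. Each window runs from 250 bases before to 50 bases after the start of the gene, on the plus strand of chromosome 19, and the sequences are those of RefSeq on build GRCm38.p6. Capitals mark matches on either strand to GAAANNGAA, the core of sites of interferon regulatory factors, and to GGAAGT, a core of sites of ETS factors.
Ms4a4b promoter, chr19:11443308-11443607: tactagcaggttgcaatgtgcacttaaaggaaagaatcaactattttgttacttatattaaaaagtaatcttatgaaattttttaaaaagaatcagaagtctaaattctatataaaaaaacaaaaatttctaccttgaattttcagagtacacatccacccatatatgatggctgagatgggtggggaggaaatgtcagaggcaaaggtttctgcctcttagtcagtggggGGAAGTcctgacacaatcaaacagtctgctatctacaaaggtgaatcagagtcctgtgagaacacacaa
Ms4a4c promoter, chr19:11407411-11407710: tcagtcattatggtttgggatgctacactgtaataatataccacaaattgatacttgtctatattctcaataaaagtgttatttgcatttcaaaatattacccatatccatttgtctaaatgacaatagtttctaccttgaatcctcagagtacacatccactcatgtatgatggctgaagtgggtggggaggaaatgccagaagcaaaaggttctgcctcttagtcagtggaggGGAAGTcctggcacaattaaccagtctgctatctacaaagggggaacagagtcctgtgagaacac
Ms4a6b promoter, chr19:11518309-11518608: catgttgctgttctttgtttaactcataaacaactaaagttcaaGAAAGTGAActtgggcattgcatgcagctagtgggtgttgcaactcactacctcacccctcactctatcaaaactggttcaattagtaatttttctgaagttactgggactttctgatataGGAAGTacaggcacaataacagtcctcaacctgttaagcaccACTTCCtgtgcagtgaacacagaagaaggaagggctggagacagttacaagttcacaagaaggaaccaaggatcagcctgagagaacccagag
Ms4a6c promoter, chr19:11469118-11469417: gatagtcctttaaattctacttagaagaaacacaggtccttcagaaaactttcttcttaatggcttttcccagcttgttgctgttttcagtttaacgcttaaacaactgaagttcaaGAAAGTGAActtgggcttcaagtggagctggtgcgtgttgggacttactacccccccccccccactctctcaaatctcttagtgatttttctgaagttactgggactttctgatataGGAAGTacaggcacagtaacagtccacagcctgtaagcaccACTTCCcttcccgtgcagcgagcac

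The windows fell into 2 related pairs. Those of Ms4a6b and Ms4a6c aligned over 213 columns with 83.6% identical bases and shared an unbroken run of 48 bases, which holds a GGAAGT match in either gene. Those of Ms4a4b and Ms4a4c aligned over 178 columns with 89.3% identical bases and shared a run of 20 bases. Among the other 19 pairs of member genes with a window, the longest shared run was 6 to 12 bases. GAAANNGAA was found once in the Ms4a6b window (bases 45 to 53) and once in the Ms4a6c window (bases 118 to 126), written GAAAGTGAA in either, and it was not found in the Ms4a4b or Ms4a4c window. Over all members, 4 of 8 windows held it, among them both Ms4a7 windows, against 8.56% of 32851 windows of the same length. GGAAGT was found in 6 of 8 member windows against 23.8% of all windows. The 8 windows hold both related pairs and 2 windows of Ms4a7, so they are not independent, and no enrichment is read from these counts. The longer form with 1 more A at the end, every match of which is also a match of the shorter form, was in 3.44% of all windows, and TTCNNNGAA, the form bound by STAT factors, was in 8.30%. Neither was in a member window. The table held windows for 7 of the 9 genes, without Ms4a1 and Ms4a6d. A match of letters is a description and not a bound site.

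The deposited values are log2 expression values from GCRMA, and a level of 1 probe set cannot be compared with that of another as an amount of RNA. Sums of levels over a list, given below, therefore set arrays side by side and do not weigh genes against each other. The medians of the arrays lay between 3.67 and 3.73. The highest bacterial control probe set, which has no target in mouse RNA, lay between 3.00 and 3.18. A probe set was tested where it lay above the array's median on at least 3 of 6 arrays, and it was called where the adjusted p of limma across all 22580 tested probe sets was under 0.05. Irgm1 itself was at 7.68, 8.58 and 7.84 in the Irgm1-/- group, against 8.39, 8.57 and 8.36 in the wild-type group. These values overlapped, and since the deleted part of the gene is not in the labels the probe set checks nothing about the genotype. The 12 measured stem cell markers were all tested, and limma called 0 (at an unadjusted p under 0.05, 1 was higher and 6 lower). Their median difference was -0.35, and that of all genes tested was 0.00. Their summed linear level was 20954, 23553 and 21262 in the Irgm1-/- group, against 25720, 28783 and 28090 in the wild-type group. The Irgm1-/- arrays thus lay wholly below wild type in this sum. Of these markers Gata2 had the smallest p (-0.83, SE 0.17, adjusted p = 0.0664 in limma). Procr and Abcg2 were bright on every array, from 12.92 to 13.56 and from 11.14 to 11.85. They were named after their values were seen, so they do not check the purity of the sort. On 2 arrays markers of other cells stood out most, T cell genes on Irgm1-/- replicate 3 and B cell genes on wild-type replicate 1. Values without these arrays are given below. Several T and NK genes also lay above wild type on Irgm1-/- replicates 1 and 2, so values without replicate 3 do not leave them out.

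Neighbouring genes of the family, Ms4a4b, Ms4a4c, Ms4a6b and Ms4a6c, were higher on all 3 Irgm1-/- arrays than on any wild-type array, by 1.97-fold to 13.1-fold over 7 probe sets. The tested probe sets of the other genes overlapped between the groups, and the rest were too dim to test. Of the 18 probe sets 10 passed the filter, for 6 genes, and 8 did not. Called higher were 3 probe sets, 1 each of Ms4a4b, Ms4a6b and Ms4a6c, and called lower 0, where 0.664% of all tested probe sets were called higher and 0.722% lower. For 7 of the 10 tested probe sets the Irgm1-/- arrays lay wholly above wild type, where 11.5% of all tested probe sets did, and for 0 wholly below, where 11% did. One of the 7, a probe set of Ms4a6c, passed the filter through the Irgm1-/- arrays alone and so had to differ. As the members were chosen with this comparison in view, nothing further is read from these counts.

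**Figure D1:**
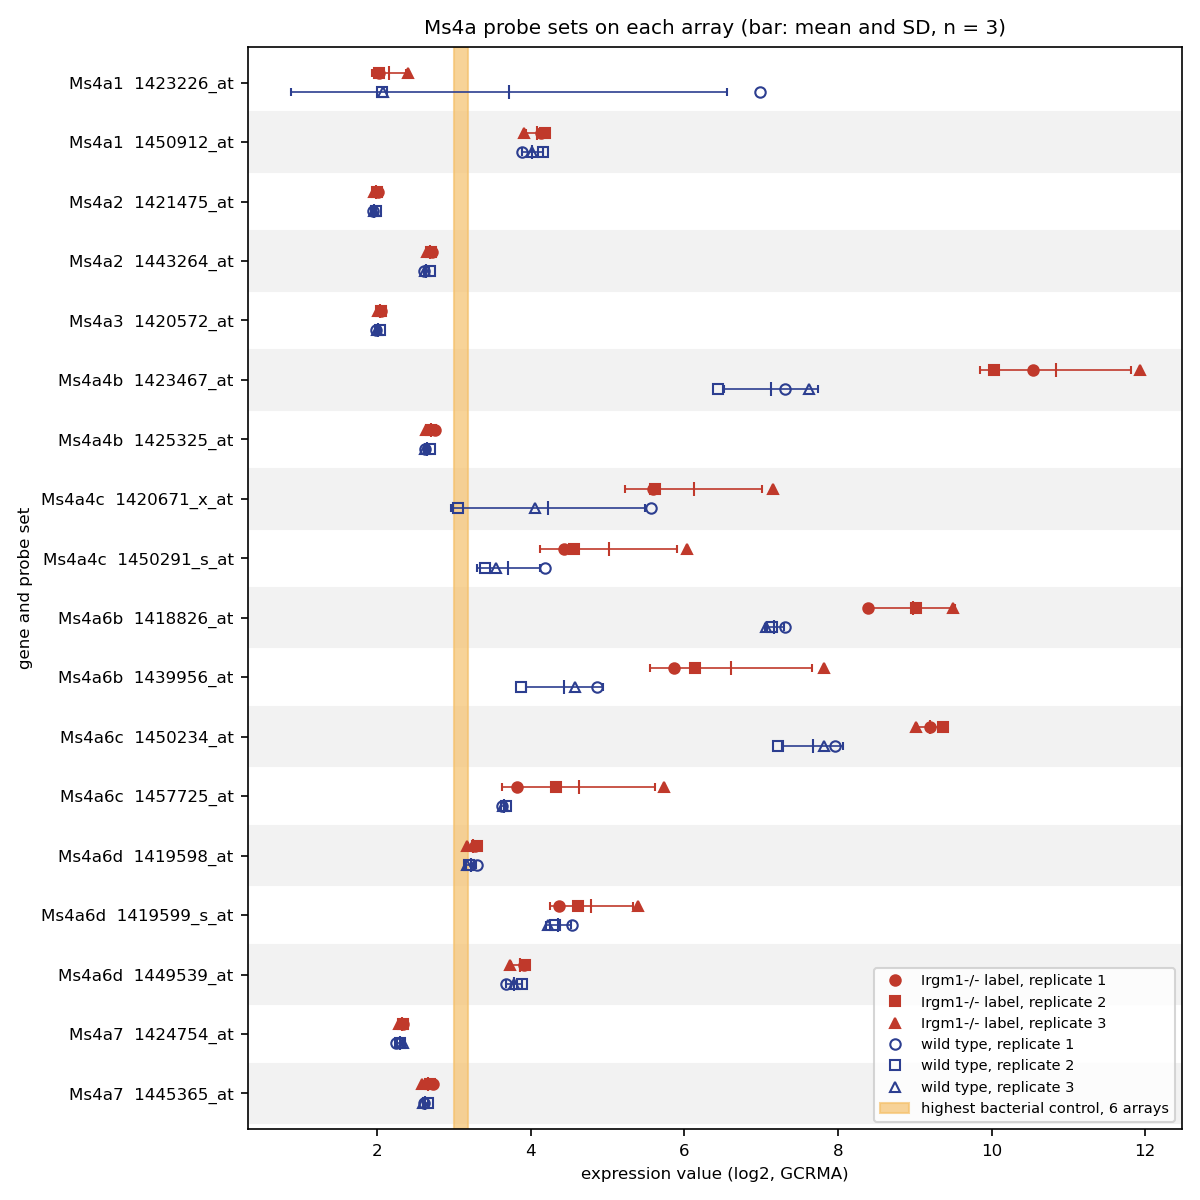
Expression value (log2, GCRMA) of each of the 18 Ms4a probe sets on each array. In every row the Irgm1-/- arrays are the upper filled symbols and the wild-type arrays the lower open symbols, with mean and SD (n = 3) and, as a shaded band, the highest bacterial control of the 6 arrays (3.00 to 3.18). Ms4a4b stands farthest apart, at 10.03 to 11.93 in the Irgm1-/- group against 6.44 to 7.63 in the wild-type group, and Ms4a2, Ms4a3 and Ms4a7 stay left of the band.

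Ms4a4b had the largest difference of the 9 genes. Its probe set 1423467_at gave 10.54, 10.03 and 11.93 in the Irgm1-/- group, against 7.31, 6.44 and 7.63 in the wild-type group. The lowest Irgm1-/- array lay 2.41 above the highest wild-type array, and Irgm1-/- replicate 3 was the highest of all. The means were 10.83 ± 0.98 and 7.13 ± 0.61 (SD, n = 3 each). Their difference of 3.71 (SE 0.51) on the log2 scale is 13.1-fold, and it was called. Without Irgm1-/- replicate 3 the difference was 3.16, or 8.94-fold. The call was lost when Irgm1-/- replicate 1 was left out (3.85), and likewise for replicate 1 (3.80) or 2 (3.36) of the wild type. The other Ms4a4b probe set, 1425325_at, did not rise above the bacterial controls on any array and stayed between 2.61 and 2.75, so the 2 probe sets of this gene disagree. Transcripts of mature T and NK cells in a sorted bulk sample can come from few cells, and more cells of a type and more RNA per cell cannot be told apart on these arrays.

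Ms4a4c lies next to Ms4a4b and is its close relative. Its probe set 1420671_x_at gave 5.59, 5.62 and 7.15 in the Irgm1-/- group, against 5.57, 3.05 and 4.05 in the wild-type group. The groups were parted by only 0.02, as wild-type replicate 1 nearly reached the lower Irgm1-/- arrays. The difference of 1.90 (SE 0.67), or 3.73-fold, was not called. It was 2.57, or 5.94-fold, without wild-type replicate 1 and 1.38, or 2.61-fold, without Irgm1-/- replicate 3. Wild-type replicate 2 was below the highest control of its array, and with that value raised to the control the folds were 3.66 on all arrays and 5.78 without wild-type replicate 1. The probe set 1450291_s_at gave 4.43, 4.57 and 6.04 in the Irgm1-/- group, against 4.18, 3.40 and 3.54 in the wild-type group. It showed the same order of arrays at the top, Irgm1-/- replicate 3 first, with a difference of 1.30 (SE 0.43) that was not called. The endings _s_at and _x_at mark probe sets whose probes can match several transcripts, so signal of Ms4a4b or another relative in these values was not tested.

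Ms4a6b, known from T cells and macrophages, was measured by 2 probe sets that agreed in direction. On 1418826_at it was at 8.40, 9.01 and 9.50 in the Irgm1-/- group, against 7.31, 7.14 and 7.06 in the wild-type group. The wild-type arrays lay close together, and the lowest Irgm1-/- array was 1.09 above them. The means were 8.97 ± 0.56 and 7.17 ± 0.13 (SD, n = 3 each), and the difference of 1.80 (SE 0.28), or 3.49-fold, was called. It was 1.53 without Irgm1-/- replicate 3, with the call kept. The call was lost when Irgm1-/- replicate 2, or 1 array of the wild type, was left out (differences of 1.75 to 1.87). On 1439956_at the gene was at 5.87, 6.14 and 7.82 in the Irgm1-/- group, against 4.86, 3.88 and 4.57 in the wild-type group. Again no value overlapped and replicate 3 was highest, and the difference of 2.17 (SE 0.51), or 4.51-fold, was not called. It was 1.57, or 2.97-fold, without Irgm1-/- replicate 3.

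Ms4a6c, best known from monocytes, differed from the genes above in how the Irgm1-/- arrays were ordered. Its probe set 1450234_at gave 9.20, 9.37 and 9.02 in the Irgm1-/- group, against 7.97, 7.22 and 7.82 in the wild-type group. The Irgm1-/- values lay within 0.34 of each other, and replicate 3 was the lowest of them. The means were 9.20 ± 0.17 and 7.67 ± 0.40 (SD, n = 3 each), and the difference of 1.53 (SE 0.23), or 2.88-fold, was called. It was 1.61, or 3.06-fold, without Irgm1-/- replicate 3. The call was lost without any 1 of the 6 arrays, where the difference ran from 1.30 to 1.68. The probe set 1457725_at, near the array medians in wild type, was at 3.81, 4.33 and 5.74 in the Irgm1-/- group, against 3.62, 3.68 and 3.63 in the wild-type group. Here replicate 3 was the highest. The difference of 0.98 (SE 0.43) was not called, and it was 0.43, or 1.34-fold, without that array.

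Ms4a6d, a macrophage gene, overlapped between the groups on all its 3 probe sets. Probe set 1419599_s_at gave 4.36, 4.61 and 5.39 in the Irgm1-/- group, against 4.54, 4.32 and 4.22 in the wild-type group. Replicate 3 of the Irgm1-/- group was the highest, while replicate 1 lay below a wild-type array. The difference was 0.43 (SE 0.26), and without Irgm1-/- replicate 3 it was 0.13. Probe set 1449539_at differed by 0.08 (SE 0.11), and 1419598_at was too dim to test, at 3.17 to 3.30 over the 6 arrays.

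Ms4a1, the gene of CD20, stood out on a single array. Its probe set 1423226_at gave 2.02, 2.02 and 2.40 in the Irgm1-/- group, against 6.99, 2.06 and 2.08 in the wild-type group. Wild-type replicate 1 was thus far above the bacterial controls and the other 5 arrays were below them, and the probe set did not pass the filter. No difference is given, since 5 of the 6 values are background. The other probe set, 1450912_at, did not show this array: it gave 4.13, 4.18 and 3.91 in the Irgm1-/- group, against 3.88, 4.16 and 4.01 in the wild-type group, a difference of 0.06 (SE 0.13). These values lie little above the array medians of 3.67 to 3.73, and whether they measure Ms4a1 RNA was not tested.

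Ms4a2, Ms4a3 and Ms4a7 were at or below the bacterial controls on all 6 arrays with each of their 5 probe sets. Ms4a2 ranged from 1.95 to 2.72 over 2 probe sets, Ms4a3 from 1.99 to 2.05 on 1 and Ms4a7 from 2.25 to 2.72 over 2. No fold is given for them. The partner of Ms4a2 in the IgE receptor, Fcer1a, was also below the controls on all arrays, at 2.20 to 2.47. Fcer1g, the gamma chain that this receptor shares with other Fc receptors, was at 6.27, 6.41 and 6.77 in the Irgm1-/- group, against 7.50, 6.96 and 7.34 in the wild-type group. The groups did not overlap, and the difference of -0.79 (SE 0.22, adjusted p = 0.159 in limma) was not called. Of 13 measured genes whose products join or are tuned by MS4A proteins, 8 were tested and limma called 0 (at an unadjusted p under 0.05, 0 were higher and 2 lower). Their median difference was -0.07, and that of all genes tested was 0.00. The smallest p belonged to Cd81, a tetraspanin of the B cell co-receptor that lies beside CD20 (-0.65, SE 0.12, adjusted p = 0.0529 in limma). Tnfrsf18, the costimulatory receptor GITR to which mouse Ms4a4b binds, differed by -0.16 (SE 0.28, adjusted p = 0.829 in limma).

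The genes of the family whose groups did not overlap are neighbours. In RefSeq gene order Ms4a4c, Ms4a4b, Ms4a6c and Ms4a6b follow each other, with the predicted gene Gm8369 between Ms4a6c and Ms4a6b, and their differences by the brightest tested probe set were 1.90, 3.71, 1.53 and 1.80. Ms4a4d, the next gene after Ms4a6b, was too dim to test, at 3.23 to 3.36, and Ms4a6d beyond it differed by 0.43. Gm8369, named after its values were seen, was at 2.81, 2.79 and 4.56 in the Irgm1-/- group, against 2.72, 2.76 and 2.72 in the wild-type group, so that only Irgm1-/- replicate 3 passed the controls. Ms4a8a, Ms4a10, Ms4a13, Ms4a15, Ms4a18 and Ms4a19 were below the bacterial controls on every array, and Ms4a20, at 3.20 to 3.32, was above them but too dim to test. Ms4a4a, Ms4a5, Ms4a12 and Ms4a14 were not analysed here. Of the 10 nearest protein-coding genes with a tested probe set on each side of the cluster, 0 of 20 were called by limma (at an unadjusted p under 0.05, 2 were higher and 1 lower). Groups that did not overlap, as for Ms4a4c, were found in 5 of these 20, 3 wholly above wild type and 2 wholly below. Over all tested probe sets 11.5% lay wholly above and 11% wholly below, so nothing is read from this count. Lpxn (1.10, SE 0.28, adjusted p = 0.121 in limma), Ccdc86 (0.70, SE 0.33, adjusted p = 0.342 in limma) and Fam111a (0.47, SE 0.17, adjusted p = 0.248 in limma) lay wholly above wild type, and Stx3 (-0.66, SE 0.19, adjusted p = 0.155 in limma) and Vps37c (-0.26, SE 0.15, adjusted p = 0.434 in limma) wholly below. Over all genes tested, 1.08% were called higher and 0.954% called lower. The related pair Tmem176a and Tmem176b, which lies outside this cluster, was bright in both groups: Tmem176b differed by -0.28 (SE 0.13, adjusted p = 0.33 in limma) and Tmem176a by 0.03 (SE 0.15, adjusted p = 0.934 in limma).

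**Figure D2:**
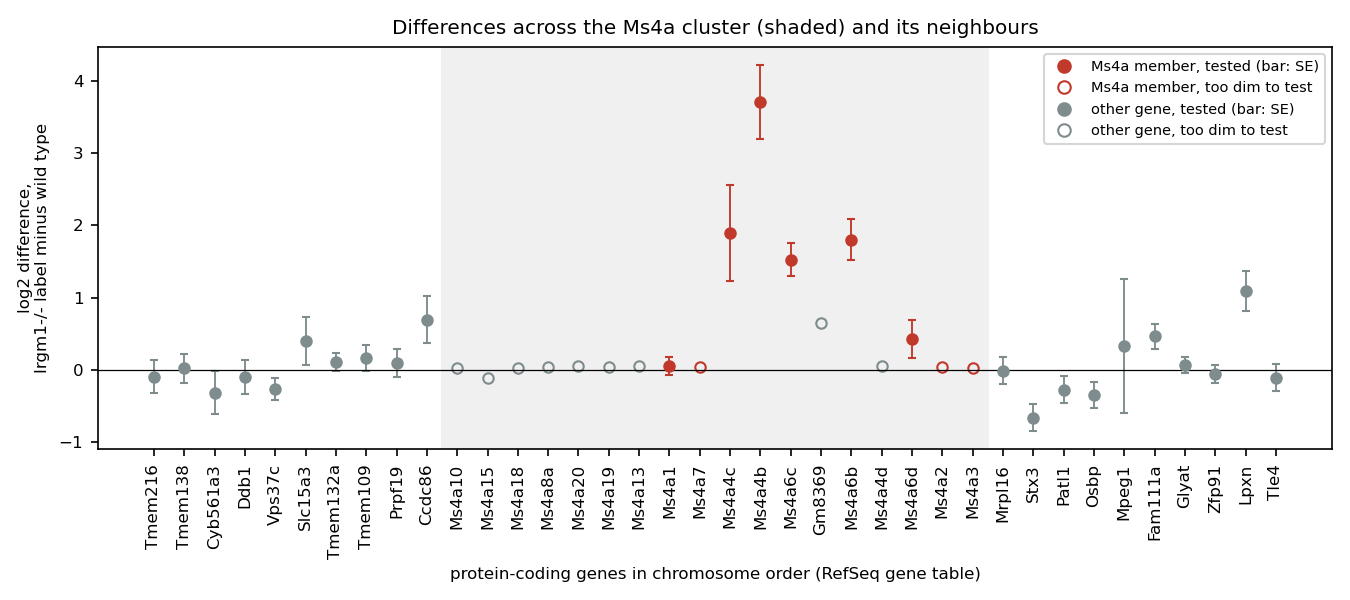
Log2 difference (Irgm1-/- minus wild type) of each gene by its brightest probe set, in chromosome order with the Ms4a cluster shaded. Filled points were tested and carry their SE, and open points were too dim to test. Ms4a4c, Ms4a4b, Ms4a6c and Ms4a6b lie between 1.53 and 3.71, and no plotted neighbour outside the cluster was called, Lpxn at 1.10 being the highest of these.

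The Irgm1-/- arrays were not alike. Of the 7 Ms4a probe sets whose groups did not overlap, 6 were highest on replicate 3, as was 1 of Ms4a6d with overlapping groups, where 18.4% of all tested probe sets were highest on that array. Replicate 3 exceeded the mean of replicates 1 and 2 by 1.64 for Ms4a4b, 1.54 and 1.54 for the probe sets of Ms4a4c, 0.80 and 1.82 for those of Ms4a6b and 0.91 for Ms4a6d. The probe sets of Ms4a6c disagreed: replicate 3 was 1.67 above that mean on 1457725_at and 0.26 below it on 1450234_at. Of 18 T and NK cell markers measured, 15 were also highest on this array, with a median excess of 1.32, against 0.07 over all genes tested. The summed linear level of the list was 8905, 8587 and 16831 in the Irgm1-/- group, against 931, 606 and 955 in the wild-type group. Such a sum follows the probe sets with the highest values, and Ccl5 alone made up 69.9% to 81.2% of it in the Irgm1-/- group, against 26.5% to 44.4% in the wild-type group. Without Ccl5 it was 1733, 1617 and 5071 in the Irgm1-/- group, against 518, 446 and 641 in the wild-type group. Of the 10 tested T and NK markers 4 rose and 0 fell, namely Ccl5, Gzmb, Thy1 and Klrd1. Nkg7 (2.61, SE 0.48, adjusted p = 0.0532 in limma), Cd2 and Cd3e, which were not called, also lay wholly above wild type. So did Cd3d, Cd3g, Cd6, Gzma and Il2rb, which did not pass the filter. Cd3e, Cd6 and Il2rb were parted by only 0.02, 0.03 and 0.05, and Cd6 and Il2rb passed the controls on Irgm1-/- replicate 3 alone. Over all tested probe sets 11.5% lay wholly above. Cd3d was at 4.56, 3.45 and 6.91 in the Irgm1-/- group, against 2.44, 2.49 and 2.46 in the wild-type group. Cd3g was at 4.15, 3.32 and 7.06, against 2.88, 2.92 and 2.89. Cd5, Cd28, Cd247 and Lat overlapped between the groups. Prf1 was below the controls on every array, as was the brighter-on-average probe set of Zap70, although another Zap70 probe set reached 4.13 on Irgm1-/- replicate 3. The part of such cells in the Ms4a values was not tested. Without replicate 3 the differences of the called genes were 3.16 for Ms4a4b, 1.53 for Ms4a6b and 1.61 for Ms4a6c.

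Among the wild-type arrays, replicate 1 was the one that stood apart. It held the only Ms4a1 value of probe set 1423226_at above the controls, 6.99, and the highest wild-type value of Ms4a4c on either probe set. Of 10 measured B cell markers 7 were highest on this array, as were 14.8% of all tested probe sets. Of these 7, Cd79a and Blk were below the controls, which leaves 5 above them. Of the 3 tested between the groups limma called 0 (0 also at an unadjusted p under 0.05). The low-affinity IgE receptor Fcer2a was at 4.20, 4.19 and 4.10 in the Irgm1-/- group, against 6.83, 4.17 and 4.19 in the wild-type group. The summed linear level of the B cell list was 469, 468 and 531 in the Irgm1-/- group, against 660, 496 and 397 in the wild-type group. Without Cd72, its largest part, it was 147, 150 and 163 in the Irgm1-/- group, against 345, 178 and 158 in the wild-type group. Cd79a, Blk, Pax5 and Vpreb3 were below the controls on all arrays. Of 14 monocyte and macrophage markers 5 were on this array over 1 log2 unit above the mean of the other wild-type arrays. Over all genes tested 0.675% were. Mpeg1, among the 5, was at 7.28, 8.21 and 7.04 in the Irgm1-/- group, against 9.57, 6.10 and 5.85 in the wild-type group. The part of these cells in the Ms4a1 and Ms4a4c values was not tested.

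**Figure D3:**
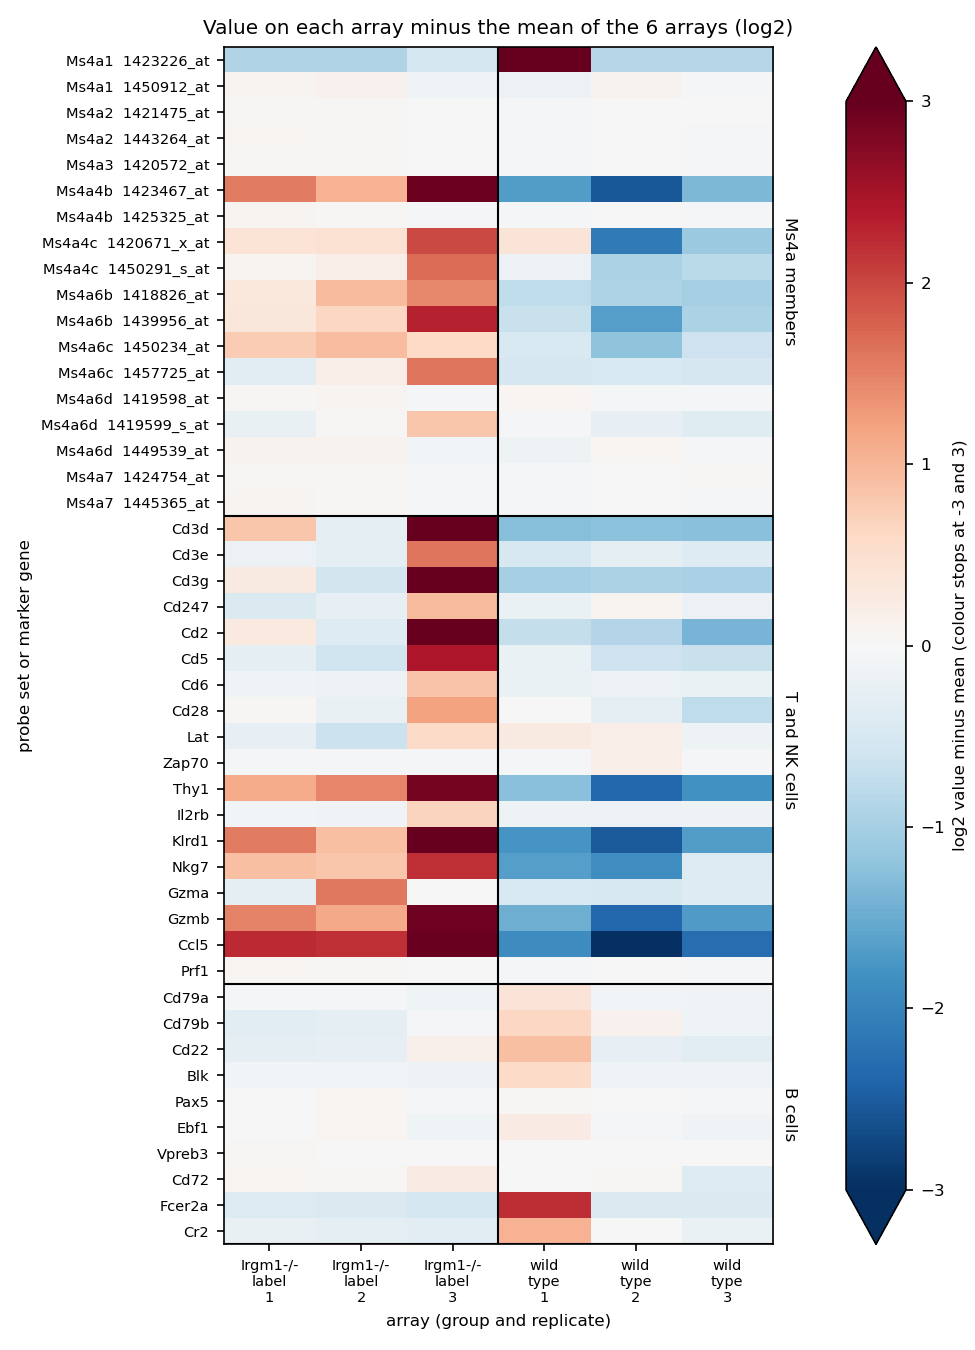
Log2 value on each array minus the mean of the 6 arrays, for the 18 Ms4a probe sets, 18 T and NK cell markers and 10 B cell markers, with the Irgm1-/- arrays left and the wild-type arrays right, and red above and blue below the mean. Ms4a4b (1423467_at) is high on all 3 Irgm1-/- arrays and highest on replicate 3, where 15 of the 18 T and NK markers are also highest. The Ms4a1 probe set 1423226_at is high on wild-type replicate 1 alone, as is Fcer2a.

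Ms4a6b, Ms4a6c and Ms4a6d are also known from monocytes and macrophages, whose markers were therefore read. Of 10 tested, limma called 0 (at an unadjusted p under 0.05, 2 were higher and 1 lower), with a median difference of 0.26. Of the genes with the smallest p, Ccr2, a chemokine receptor of monocytes, differed by 1.60 (SE 0.49, adjusted p = 0.183 in limma). It was at 4.36, 4.37 and 5.87 in the Irgm1-/- group, against 4.13, 2.86 and 2.80 in the wild-type group. Wild-type replicates 2 and 3 were thus below the controls. Its other probe sets did not pass the filter and differed by 0.04 to 0.19. Cd14, the coreceptor for bacterial lipopolysaccharide, differed by -1.25 (SE 0.23, adjusted p = 0.0518 in limma), Cd68 by 0.76 (SE 0.22, adjusted p = 0.167 in limma) and Csf1r, the receptor of macrophage colony-stimulating factor, by 1.15 (SE 0.60, adjusted p = 0.387 in limma). The summed linear level of this list was 2298, 3918 and 2927 in the Irgm1-/- group, against 4675, 3170 and 2332 in the wild-type group, and the groups overlapped. Lyz2 made up 50.8% to 61.9% of it. Fcgr1, C1qa, C1qc and Vsig4 were below the controls throughout. Of the tested markers of dendritic cells (4) and of granulocyte-monocyte progenitors and neutrophils (5), limma called 0 (at an unadjusted p under 0.05, 2 dendritic cell genes were lower). Of 2 tested mast cell and basophil genes, Gzmb was called, a granzyme that is also on the T and NK list.

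Interferon-stimulated genes were also higher on the Irgm1-/- arrays. Of 13 tested, among them Irgm1 itself, 9 rose and 0 fell, with a median difference of 2.20. Without Irgm1 it was 9 of 12, with a median of 2.27. Replicate 3 of the Irgm1-/- group was highest for 5 of them, with a median excess over replicates 1 and 2 of 0.02. Those with the smallest p were Rsad2, an antiviral enzyme (3.33, SE 0.13, adjusted p = 0.000214 in limma), the chemokines Cxcl10 (3.88, SE 0.27, adjusted p = 0.00157 in limma) and Cxcl9 (3.09, SE 0.27, adjusted p = 0.00385 in limma), and Usp18, which restrains interferon signalling (2.98, SE 0.29, adjusted p = 0.00737 in limma). Ifit1, an RNA-binding antiviral protein, was at 8.76, 10.01 and 8.82 in the Irgm1-/- group, against 5.57, 4.21 and 5.52 in the wild-type group. As for Ms4a6c on 1450234_at, replicate 2 was the highest Irgm1-/- array and the lowest wild-type array.

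The genes whose values ran most like each member over the 6 arrays were found by Pearson correlation among 10373 other tested genes. The arrays share their group labels, and with so many genes over 6 points high values are common, so they are given as a description. Nearest to Ms4a4b were Kntc1, a kinetochore gene (r = 0.999), the granzyme Gzmb (r = 0.995), the NK receptor subunit Klrd1 (r = 0.995), the kinesin Kif18b (r = 0.995) and the lymphocyte GTPase Gimap4 (r = 0.993). Nearest to Ms4a6b were Slfn8 (r = 0.993), the immunoproteasome subunit Psmb8 (r = 0.987), the DNA polymerase subunit Pold2 (r = 0.986), Exog (r = 0.984) and Ifit1bl1 (r = 0.984). Nearest to Ms4a6c, read on 1450234_at, were Zgrf1 (r = 0.992), Ifit1 (r = 0.990), Plac8 (r = 0.988), Wdr18 (r = 0.983) and Nusap1 (r = 0.982). Its probe set 1457725_at, highest on Irgm1-/- replicate 3, was not compared. For Ms4a4c they were Myo19, Hddc2, Mrc1, Cmc2 and Aplnr (r from 0.964 to 0.991), among them the mannose receptor of macrophages, Mrc1. For Ms4a6d they were Rasgrp1, an activator of Ras in T cells, Snf8, Sox12, Cd96 and Abitram (r from 0.985 to 0.990). Ms4a1 was read here on 1450912_at, which did not show wild-type replicate 1. Its nearest genes were Sult6b1, BC147527, Gm6600, Six4 and Tpbpa, whose own differences between the groups were 0.05 to 0.06. Among the members, each by its brightest tested probe set, Ms4a4b ran closest to Ms4a6b (r = 0.95) and to Ms4a6c (r = 0.91). Ms4a6c and Ms4a6d had r = 0.48.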

How the data were processed

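Per the labels' protocols, RNA went through 2 rounds of linear T7 amplification with biotin labelling. The authors deposited log2 expression values per probe set. GCRMA made them, per the submitters' processing notes; no version of it is given in the sources used here. That the scale is log2 follows from the range of the values. No pseudocount was added. GCRMA leaves dim probe sets in a narrow low band, which shrinks their spread.

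Of 45101 probe sets, 34958 had 1 symbol, 932 several and 9211 none. All 18 Ms4a probe sets matched a RefSeq gene ID of assembly GRCm38.p6, used for names and gene order. The 2 groups were set against each other in limma 3.58.1 under R 4.3.3 (lmFit, eBayes with an intensity trend, 2-sided, no block), on 22580 probe sets above the array median on at least 3 of 6 arrays, with Benjamini-Hochberg adjustment over all of them. For a gene, the probe set with the highest mean among those tested was used, or among all where none was tested. The fit was tested on simulated data. Promoters were aligned locally in Biopython 1.88 (match 1, mismatch -2, gap opening -4, extension -2).

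The members and lists were chosen with earlier results of these data known. Named were all members, the other Ms4a genes, Irgm1, neighbours past the threshold, up to 4 genes per list by smallest p and the 5 genes most like each member. Other genes (Gm8369, Lpxn, Ccdc86, Fam111a, Stx3, Vps37c, Mpeg1, Cd72, Lyz2, Procr, Abcg2, Zap70, Prf1, Cd2, Cd3d, Cd3g, Cd5, Cd28, Cd247, Lat, Fcer1a, Tnfrsf18 and those listed as below the controls) were named after their values were seen. The same holds for Cd3e, Cd6, Gzma, Il2rb and Nkg7. Whether the arrays came from separate mice is not in the labels, so p-values measure the spread between these arrays, whose number limits the precision. Other filters, normalisations, variance models, array weights, a replicate block, other thresholds and leaving out arrays were tried.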

Additional observations from a re-analysis of the deposited data

How the results depend on the processing

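Of 16 other fits, Ms4a4b stayed called in 10, Ms4a6b in 8 and Ms4a6c in 6, with differences of 3.16 to 4.11, 1.53 to 2.09 and 1.30 to 1.76. The 3 members called became 0 unfiltered, 0 filtered at the 25th percentile, 0 at an adjusted p threshold of 0.01 and 0 without Irgm1-/- replicate 3 and wild-type replicate 1 together (chosen after seeing the data). With the replicate block 1 was called, and with array weights 4. With 1 array left out they were 0 to 2 higher and 0 to 0 lower. The mean over all probe sets of a gene gave 1.88 for Ms4a4b and -0.75 for Ms4a1, and takes in probe sets at background. Of 99 alternative values of the 6 tested genes, 97 kept their sign, and the exceptions were both for Ms4a1 (-0.75 above, and -0.01 without wild-type replicate 1).

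Over all probe sets, 150 were higher and 163 lower. These were 401 and 463 with array weights, 62 and 64 at the 25th percentile, 49 and 54 unfiltered, 27 and 41 with the replicate block, 24 and 28 without those 2 arrays, 314 and 315 at a threshold of 0.10 and 25 and 32 at 0.01. With 1 array left out they ran from 17 to 138 and from 28 to 129. Interferon-stimulated genes called higher were 9, then 4 with the replicate block, 3 without those 2 arrays and 5 to 7 with 1 array left out. T and NK genes were 4, then 2 unfiltered and 1 to 4 with 1 array left out. The mast cell list gave 1, then 0 at the 70th percentile and 0 to 1 with 1 array left out. The lower counts of the partner, monocyte, dendritic and stem cell lists, all 0, became 1 with array weights and 1 at the 70th percentile. The partner list also gave 1 with quantile normalization, the monocyte list 1 higher without those 2 arrays, and the dendritic list 0 to 1 lower with 1 array left out. Arrays share only a replicate number (correlations of same-numbered deviations -0.11, -0.02 and -0.28), so no pairing was assumed. Raising values under the controls touched 1 tested member probe set, of Ms4a4c (3.66-fold, against 3.73-fold as deposited). Pseudocounts did not apply to log2 values. The cause of these changes was not tested.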
